A study of Mus musculus with 4 samples.

Results

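The Notch genes examined here are 10 genes chosen by name among the 47729 genes of the deposited table: the receptors Notch1, Notch2, Notch3 and Notch4, the ligands Dll1, Dll4, Jag1 and Jag2, and the transcriptional targets Hey1 and Hes1. Notch receptors are single-pass membrane proteins that bind Delta-like and Jagged ligands displayed by a neighbouring cell. Binding exposes the receptor to cleavage by an ADAM protease and then by the gamma-secretase complex, and the released intracellular domain joins the DNA-binding protein RBPJ and the Mastermind-like proteins to switch on repressor genes of the Hes and Hey families. In growing vessels, Dll4 on tip cells acts on Notch1 of the adjacent endothelial cells to restrain further sprouting, Jag1 opposes this signal, Notch4 is found mainly in endothelium, and Notch3 is the receptor typical of pericytes and smooth muscle cells, collectively called mural cells.

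RNA was sequenced from tumors formed by Lewis lung carcinoma (LLC) cells, a mouse carcinoma line. The cells were implanted under the dorsal skin of C57BL/6 mice, the strain the line comes from, and the tumors were taken on day 5. LLC-Chem tumors came from cells transfected with a pEFIN plasmid encoding a pre-processed, bioactive form of chemerin. LLC tumors came from cells labelled wild type, while the study also describes cells that received the empty vector. Each group held 2 pools of 3 tumors, from mice that the methods give in general as 6 to 10 weeks old. Transfected clones were picked individually after selection, so that chemerin and a property of the clone cannot be told apart in these 4 pools. Host cells and tumor cells were sequenced together, and in such bulk tissue fewer cells of a type and less RNA per cell cannot be told apart.

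The deposited values are reads per 1000000 (RPM). Fitted library totals ran from 28470000 to 33990000 reads, and 3 reads, the least that was taken as detected, corresponded to 0.088 to 0.105 RPM. This limit covers counting error only. Differences were tested with limma, two-sided, on log2(RPM + 0.5) for the 13694 genes averaging 1 RPM or more, and were called at an adjusted p under 0.05, with Benjamini-Hochberg adjustment over all 13694 genes. The added 0.5 RPM makes changes of weakly expressed genes look smaller than they are. The smallest two-sided p that an exact permutation test can give with 2 pools against 2 is 0.33. Rarres2, which encodes chemerin, was at 102 and 98.2 RPM in LLC tumors and at 106 RPM in each LLC-Chem pool (log2 ratio 0.08, limma adjusted p = 0.541), and Lrrc61 on the other strand shares 33.6% of its exonic bases. Whether the transcript of the plasmid is counted under Rarres2 was not tested. Rarres2 thus gave no check of the labels, so LLC-Chem stands throughout for the pools labelled so, and every direction given rests on those labels. Cmklr1, a chemerin receptor, fell, with 38.8 and 56.2 RPM in LLC against 21.7 and 11.7 RPM in LLC-Chem tumors (log2 ratio -1.52, limma adjusted p = 0.0307).

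All 10 Notch genes passed the filter on low values, and all 10 had a negative log2 ratio (log2 fold change of LLC-Chem over LLC tumors), from -0.10 for Notch3 to -2.0 for Dll4, with a median of -1.16. The median over all genes tested was -0.04. Dll1 and Hey1 were under 1 RPM in both LLC-Chem pools and passed the filter only through the LLC pools, so they could be tested only if they were higher in LLC tumors. The fall was called for 5 of the 10 (Notch1, Notch4, Jag1, Hes1 and, with that limit, Dll1), where limma called 13.5% of all genes tested lower. None of the 10 was called higher, against 9.54% of all genes. In 9 of the 10 both LLC-Chem pools lay under both LLC pools, an order found in 39.3% of all genes tested, and the exception was Notch3. edgeR's quasi-likelihood test on the reads recovered from the RPM called 5 members lower, all 5 shared with limma, against 11.7% of all genes. DESeq2 on the same reads called 7, adding Dll4 and Hey1, against 16.6% of all genes. With any 1 of the 4 pools left out, limma called 0 of the 10, as it called 0 genes in the whole table, while 6 to 8 of the 10 had an unadjusted p under 0.05. Without the minimum of 1 RPM, limma likewise called 0 of the 10, with 7 at an unadjusted p under 0.05.

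**Figure D1:**
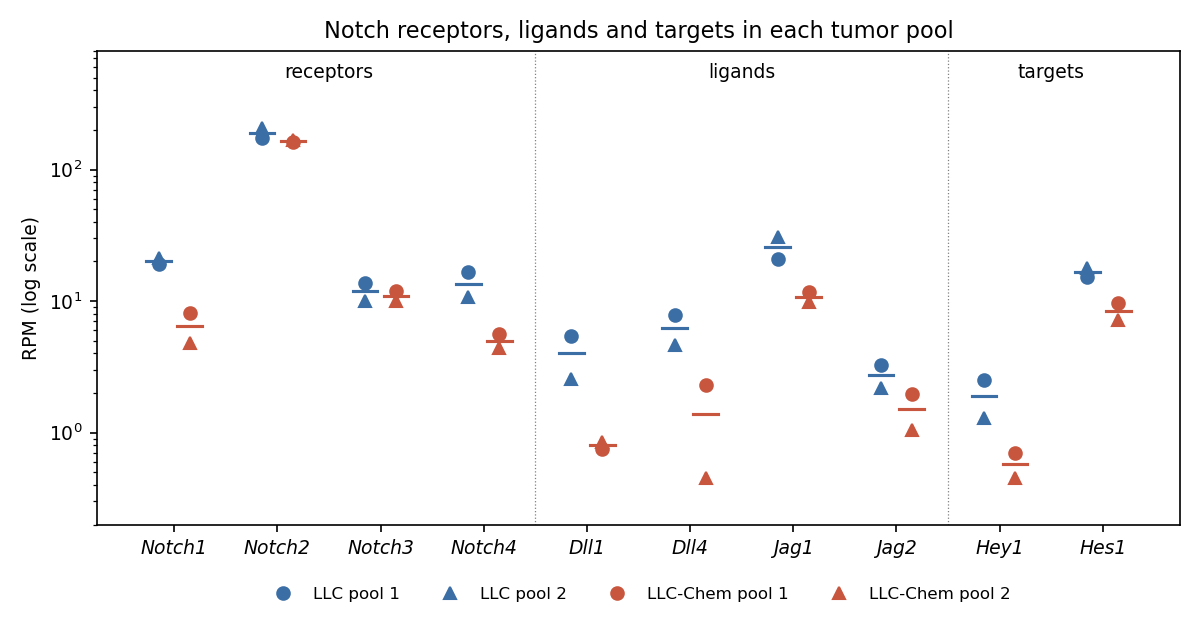
RPM of each Notch gene in the 4 pools on a log scale, with circles for pool 1, triangles for pool 2 and a bar at each group mean (n = 2). The LLC-Chem pools (red) lay under the LLC pools (blue) in 9 of the 10 genes, closely for Notch2, and the groups overlapped for Notch3.

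Notch1 (ENSMUSG00000026923, chromosome 2, 26457903 to 26516663, GRCm38), the receptor through which sprouting is restrained, stood at 19.1 and 21.1 RPM in LLC tumors against 8.10 and 4.80 RPM in LLC-Chem tumors. Both LLC-Chem pools were far under the LLC pools, which lay close together. Its mean fell to 6.45 ± 2.33 RPM in LLC-Chem from 20.1 ± 1.41 RPM in LLC tumors (both SD, n = 2), or 32.0% of the LLC level, a log2 ratio of -1.61 with an SE of 0.26 (limma adjusted p = 0.018). The change ranged from -1.26 to -1.96 with a pool left out. Genes on the other strand share 9.76% of its exonic bases, at no more than 0.70 RPM each. Whether the counting separated the 2 strands is not given.

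Notch4 (ENSMUSG00000015468, chromosome 17, 34564268 to 34588503) stood at 16.5 and 10.7 RPM in LLC tumors against 5.60 and 4.40 RPM in LLC-Chem tumors. Both LLC-Chem values were well under the lower LLC value. Its mean fell to 5.00 ± 0.848 RPM in LLC-Chem from 13.6 ± 4.06 RPM in LLC tumors (both SD, n = 2), a log2 ratio of -1.34 with an SE of 0.26 (limma adjusted p = 0.0256).

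Notch2 (ENSMUSG00000027878, chromosome 3, 98013527 to 98150361), by far the most abundant of the receptors, stood at 174 and 208 RPM in LLC tumors against 163 and 167 RPM in LLC-Chem tumors. The groups did not overlap, but the distance between them was smaller than the distance between the LLC pools. The log2 ratio of -0.20 did not pass the test (limma adjusted p = 0.248), with a 95% interval of -0.50 to 0.10. Notch3 (ENSMUSG00000038146, chromosome 17, 32120820 to 32166852) stood at 13.7 and 10.1 RPM in LLC tumors against 11.9 and 10.1 RPM in LLC-Chem tumors, which overlapped. Its log2 ratio was -0.10 (95% interval -0.61 to 0.41, limma adjusted p = 0.737), and it was 0.11 with LLC pool 1 left out and 0.02 with LLC-Chem pool 2 left out. The interval of Notch3 does not reach the estimates of Notch1 or Notch4. The difference between receptors was not itself tested.

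**Figure D2:**
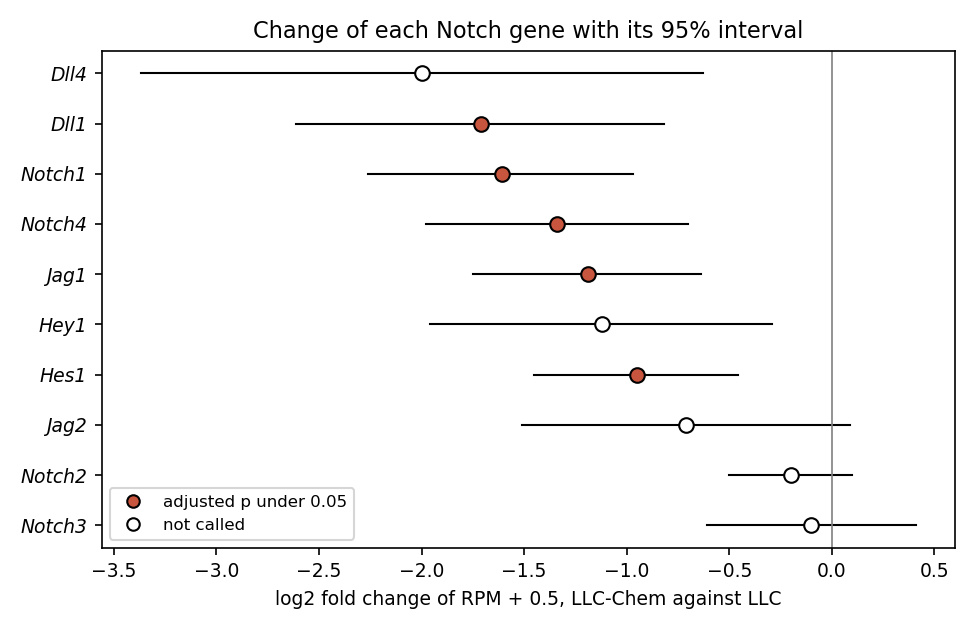
Log2 ratio of RPM + 0.5 in LLC-Chem against LLC tumors for each Notch gene, with its 95% interval from limma (n = 2 pools per group); filled points passed an adjusted p of 0.05. The intervals of Notch2, Notch3 and Jag2 include 0, and that of Dll4 is the widest, from -3.37 to -0.63.

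The upstream sequences of the 4 receptors are shown because 2 receptors were called lower and 2 were not. They are the 250 bases before the RefSeq start site on GRCm38.p6, written 5′ to 3′ on the strand of the gene, with matches to the GC box GGGCGG or its reverse complement in capitals. They lie at chr2:26503823-26504072 (minus strand) for Notch1, chr3:98013288-98013537 (plus) for Notch2, chr17:32166891-32167140 (minus) for Notch3 and chr17:34564045-34564294 (plus) for Notch4. The start site coincides with a GENCODE transcript start for Notch1 and Notch2, and lies 38 and 3 bases from the nearest one for Notch3 and Notch4.
Notch1: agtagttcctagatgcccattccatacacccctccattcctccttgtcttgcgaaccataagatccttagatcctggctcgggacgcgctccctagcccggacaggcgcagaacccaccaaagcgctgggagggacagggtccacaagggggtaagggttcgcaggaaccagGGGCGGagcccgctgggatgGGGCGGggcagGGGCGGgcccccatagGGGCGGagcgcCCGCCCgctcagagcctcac
Notch2: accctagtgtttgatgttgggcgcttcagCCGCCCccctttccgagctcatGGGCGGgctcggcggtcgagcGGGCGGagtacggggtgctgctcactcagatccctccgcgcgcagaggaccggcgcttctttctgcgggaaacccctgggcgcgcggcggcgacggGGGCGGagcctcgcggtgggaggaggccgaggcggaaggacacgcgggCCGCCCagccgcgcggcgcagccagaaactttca
Notch3: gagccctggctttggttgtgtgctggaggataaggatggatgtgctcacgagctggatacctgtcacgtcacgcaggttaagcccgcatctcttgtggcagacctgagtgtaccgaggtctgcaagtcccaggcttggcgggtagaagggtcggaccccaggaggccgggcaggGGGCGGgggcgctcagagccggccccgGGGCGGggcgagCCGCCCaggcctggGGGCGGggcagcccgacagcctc
Notch4: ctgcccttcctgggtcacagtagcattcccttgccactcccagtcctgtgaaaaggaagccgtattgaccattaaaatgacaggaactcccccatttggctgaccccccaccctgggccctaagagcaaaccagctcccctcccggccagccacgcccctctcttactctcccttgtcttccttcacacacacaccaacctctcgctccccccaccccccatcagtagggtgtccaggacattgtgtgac
The GC box was found 5 times upstream of Notch1, 5 times upstream of Notch2, 4 times upstream of Notch3 and not upstream of Notch4. It was found in 32.7% of 32851 windows of the same length. Notch4 also had the lowest G and C content of the 4 receptors, 58.4%, against 66.0% for Notch1, 68.8% for Notch3 and 72.0% for Notch2, with a median of 52.4% over all windows. RefSeq windows were matched for 8 of the 10 genes, 9 windows in all since Dll1 has 2, and not for Hey1 and Hes1. The RBPJ core TGGGAA was found on neither strand in any of the 9 windows, against 21.6% of all windows. The hypoxia response core ACGTG was found once, 186 bases upstream of the Notch3 start, against 16.6% of all windows. No match overlapped a match to another of these motifs. The absence of these letters concerns only the 250 bases searched.

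Among the ligands, Dll1 (ENSMUSG00000014773, chromosome 17, 15367354 to 15376872), a Delta-like ligand, stood at 5.45 and 2.55 RPM in LLC tumors against 0.75 and 0.85 RPM in LLC-Chem tumors. The LLC pools lay far apart, but both were above the LLC-Chem pools, which were close together. Its mean fell to 0.80 ± 0.0706 RPM in LLC-Chem from 4.0 ± 2.05 RPM in LLC tumors (both SD, n = 2), a log2 ratio of -1.71 with an SE of 0.36 (limma adjusted p = 0.0301). Dll1 reached the filter on low values only through the LLC pools. These levels correspond to 168 and 72 reads in LLC and 25 and 28 reads in LLC-Chem tumors. A gene on the other strand, A930024N18Rik, shares 20.5% of the exonic bases of Dll1 and was at no more than 0.15 RPM.

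Jag1 (ENSMUSG00000027276, chromosome 2, 137081456 to 137116644), the most abundant of the ligands, stood at 20.9 and 30.6 RPM in LLC tumors against 11.8 and 9.79 RPM in LLC-Chem tumors, without overlap. Its mean fell to 10.8 ± 1.45 RPM in LLC-Chem from 25.7 ± 6.86 RPM in LLC tumors (both SD, n = 2), a log2 ratio of -1.19 with an SE of 0.22 (limma adjusted p = 0.0241). Jag2 (ENSMUSG00000002799, chromosome 12, 112907819 to 112929776), the second Jagged ligand, stood at 3.25 and 2.20 RPM in LLC tumors against 1.95 and 1.05 RPM in LLC-Chem tumors. The higher LLC-Chem pool came close to the lower LLC pool. The log2 ratio of -0.71 did not pass the test (95% interval -1.51 to 0.09, limma adjusted p = 0.155).

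Dll4 (ENSMUSG00000027314, chromosome 2, 119325784 to 119335962), the ligand of tip cells, stood at 7.80 and 4.60 RPM in LLC tumors against 2.30 and 0.45 RPM in LLC-Chem tumors, the last value resting on 15 reads. The LLC-Chem pools were both under the LLC pools but lay further apart on the log scale than the LLC pools did. The mean was 1.37 ± 1.31 RPM in LLC-Chem and 6.20 ± 2.26 RPM in LLC tumors (both SD, n = 2), and the log2 ratio of -2.0 with its SE of 0.55 narrowly missed the threshold (limma adjusted p = 0.0521). The log2 ratio was -1.22 without the second LLC-Chem pool and -2.78 without the first, and Dll4 passed with a pseudocount of 1 (limma adjusted p = 0.0468) and by DESeq2 (adjusted p = 0.0137). Its adjusted p was 0.0853 by edgeR's quasi-likelihood test.

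Of the targets, Hes1 (ENSMUSG00000022528, chromosome 16, 30064384 to 30067796), a repressor induced in many cell types, stood at 15.3 and 17.8 RPM in LLC tumors against 9.64 and 7.15 RPM in LLC-Chem tumors, without overlap. Its mean fell to 8.40 ± 1.77 RPM in LLC-Chem from 16.6 ± 1.77 RPM in LLC tumors (both SD, n = 2), or 50.6% of the LLC level, a log2 ratio of -0.95 with an SE of 0.20 (limma adjusted p = 0.0299). Hey1 (ENSMUSG00000040289, chromosome 3, 8663359 to 8667256), a target best known in endothelium, stood at 2.5 and 1.30 RPM in LLC tumors against 0.70 and 0.45 RPM in LLC-Chem tumors, or 77, 37, 23 and 15 reads. Hey1 reached the filter on low values only through the LLC pools. Its log2 ratio of -1.12 (standard error 0.33) did not pass the test by limma (adjusted p = 0.0622) or by edgeR (adjusted p = 0.0504), and passed by DESeq2 (adjusted p = 0.0414).

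Per kilobase (kb) of exon, Notch2 stood first in LLC tumors at 17.7 ± 2.25 RPM per kb, followed by Hes1 at 8.14 ± 0.867 and Jag1 at 4.42 ± 1.18 RPM per kb (SD, n = 2). Notch4, Dll4, Notch3 and Notch1 followed at 1.69, 1.61, 1.47 and 1.42 RPM per kb, and Dll1, Hey1 and Jag2 were the lowest at 0.948, 0.582 and 0.391 RPM per kb. From Notch4 downwards, the means of neighbours in this order overlapped within their SD. Both Notch1 pools (1.34 and 1.49 RPM per kb) nevertheless lay above both Dll1 pools (1.29 and 0.604 RPM per kb). In LLC-Chem tumors the order began in the same way, with Notch2 at 15.3 ± 0.226, Hes1 at 4.12 ± 0.867 and Jag1 at 1.86 ± 0.249 RPM per kb. Notch3 came next at 1.36 ± 0.162 RPM per kb, above Notch4 at 0.62 ± 0.105 and Notch1 at 0.453 ± 0.164 RPM per kb. Dll4, Jag2, Dll1 and Hey1 followed at 0.357, 0.215, 0.19 and 0.176 RPM per kb, with overlapping spreads.

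The receptors summed to 21.2 and 23.4 RPM per kb in the LLC pools and to 17.9 and 17.6 in the LLC-Chem pools. Notch2 supplied 76.0% and 82.6% of that sum in the LLC pools and 84.7% and 87.9% in the LLC-Chem pools. Notch1 went from 6.35% and 6.36% to 3.18% and 1.92%, and Notch4 from 9.65% and 5.70% to 3.88% and 3.10%, both without overlap between the groups. The share of Notch3 overlapped, at 7.99% and 5.37% against 8.26% and 7.09%. The ligands summed to 7.37 and 7.36 RPM per kb in the LLC pools and to 3.09 and 2.15 in the LLC-Chem pools. Jag1 supplied the largest share of the ligands in every pool, from 48.7% to 78.2%, and its shares in the 2 groups overlapped.

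**Figure D3:**
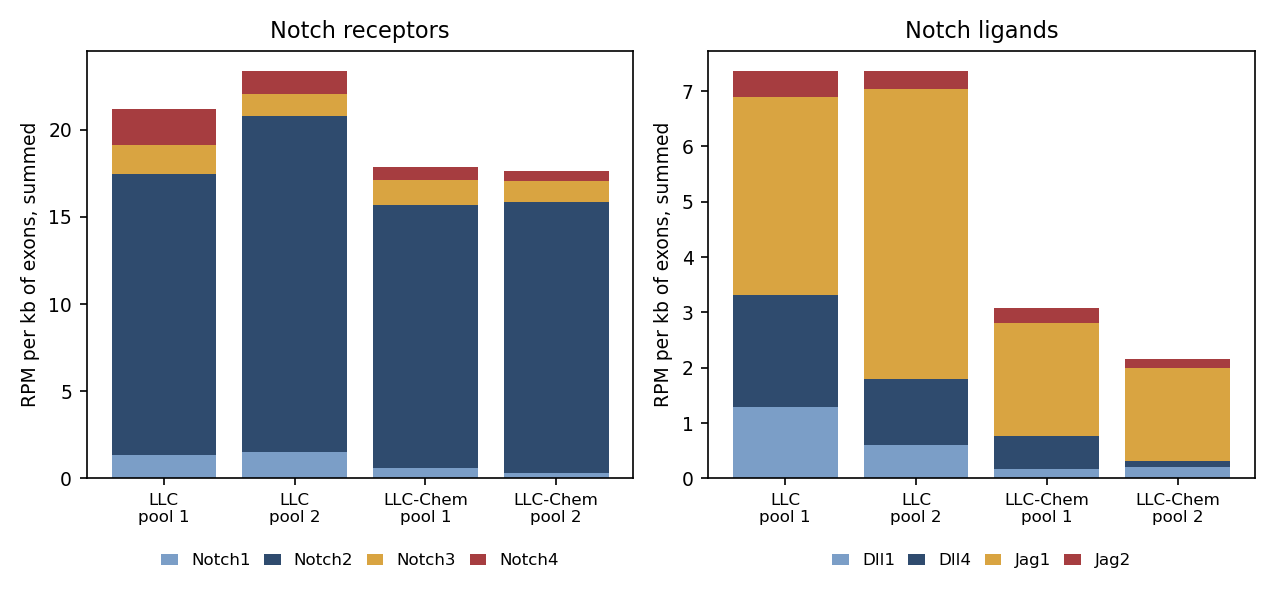
Stacked RPM per kb of exons for the Notch receptors (left) and ligands (right) in each of the 4 pools, on axes that start at 0. Notch2 makes up 76.0% to 87.9% of the receptors in every pool, and the ligand sum is 7.37 and 7.36 in the LLC pools against 3.09 and 2.15 in the LLC-Chem pools.

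Markers of other cell types in the tumors were measured beside the Notch genes. For the counts of markers called lower, limma called 13.5% of all genes tested lower. All 10 endothelial markers were called lower, among them Pecam1 (CD31, log2 ratio -2.08), Cdh5 (-2.46), Kdr (-2.10) and Vwf, the least changed at -1.47 (limma adjusted p = 0.0204, 0.0141, 0.0093 and 0.0146). None of the 10 was at 0 in any pool, and their summed level ran from 197 to 289 RPM in LLC and from 39.9 to 67.1 RPM in LLC-Chem tumors. Of 8 mural markers 6 were called lower, including Acta2 (-2.5), Rgs5 (-1.99) and Pdgfrb (-1.53), with adjusted p of 0.01, 0.015 and 0.013 from limma. Kcnj8, the least changed mural marker, was not called (log2 ratio -0.48, limma adjusted p = 0.389). The summed mural level ran from 204 to 249 RPM in LLC and from 48.1 to 75.1 RPM in LLC-Chem tumors. Of 6 macrophage and leukocyte markers 3 were called lower, with summed levels of 3597 to 6539 RPM and 1415 to 2942 RPM, Ptprc (CD45) falling by 1.62 log2 units (limma adjusted p = 0.0218). The call of Csf1r, 1 of these 3, was lost by edgeR (adjusted p = 0.066), by DESeq2 (adjusted p = 0.0773) and after TMM scaling (limma adjusted p = 0.0562). Most of the leukocyte sum came from Lyz2, at 2596 and 5162 RPM in LLC and 2229 and 1030 RPM in LLC-Chem tumors. Lyz2 was not called (limma adjusted p = 0.106). Of 7 genes of arterial and tip endothelial cells 2 were called lower, and both were testable only through the LLC pools. In 5 of the 7 both LLC-Chem pools lay under both LLC pools, an order found in 39.3% of all genes tested. Of these 5, Esm1 and Sox17 also averaged under 1 RPM in LLC-Chem tumors and were testable only through the LLC pools. This order and the median log2 ratio of -1.05 over the 7 thus say nothing about the list. Their summed level, most of it from Unc5b, Apln and Efnb2, was 190 to 226 RPM in LLC and 171 to 199 RPM in LLC-Chem tumors. The erythroid markers summed to 90.4 and 35.8 RPM in LLC tumors, to 116 RPM in LLC-Chem pool 1 and to 3.55 RPM in LLC-Chem pool 2, which also had the lowest endothelial, mural and leukocyte sums. Without LLC-Chem pool 2 the log2 ratios of Notch1, Notch4, Dll1, Jag1 and Hes1 were -1.26, -1.18, -1.77, -1.06 and -0.75. The part of these cell types in the fall of the Notch genes was not tested.

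Set against the summed endothelial markers, the Notch genes did not all keep a fixed proportion. Dll4 amounted to 2.70% and 2.33% of the endothelial sum in the LLC pools and to 3.43% and 1.13% in the LLC-Chem pools. Dll1 amounted to 1.89% and 1.29% in LLC and to 1.12% and 2.13% in LLC-Chem tumors. The groups thus overlapped for both Delta-like ligands. Notch4 went from 5.71% and 5.45% to 8.34% and 11%, and Notch1 from 6.63% and 10.7% to 12.1% and 12%, without overlap between the groups and highest in LLC-Chem tumors. Hes1 went from 5.31% and 9.04% to 14.4% and 17.9%, and Notch2 from 60.1% and 105% to 243% and 418%. Against the summed mural markers, Notch3 amounted to 5.5% and 4.98% in the LLC pools and to 15.9% and 21% in the LLC-Chem pools, a ratio of the means of 3.52. Against the same mural sum the groups overlapped for Notch1 and Hey1, as well as for Dll1 and Dll4. These proportions are descriptions without a test, and the marker sums by which they are divided were lower in LLC-Chem tumors.

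**Figure D4:**
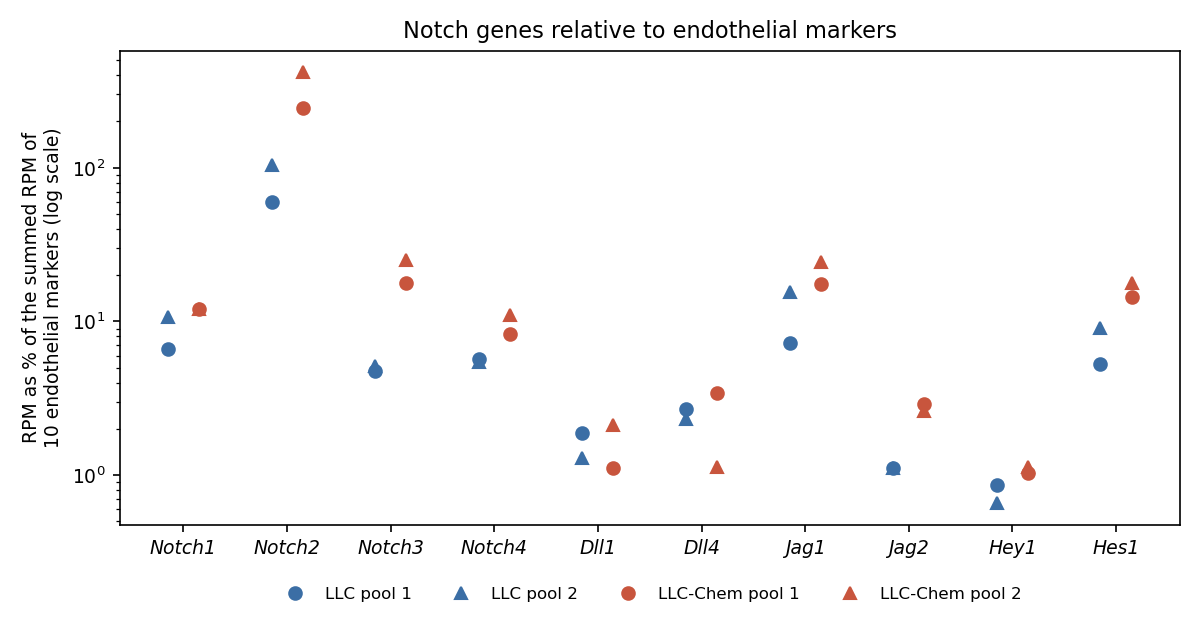
RPM of each Notch gene as a percentage of the summed RPM of 10 endothelial markers in each pool, on a log scale; circles are pool 1 and triangles pool 2. The groups overlap for Dll1 and Dll4, while the other 8 genes, from Hey1 to Notch2, have both LLC-Chem pools above both LLC pools. The endothelial sum was 289 and 197 RPM in the LLC pools against 67.1 and 39.9 RPM in the LLC-Chem pools, so a gene with unchanged RPM also rises here. The share of all genes in this order was not computed.

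Beyond the 10 genes, 49 further genes of the pathway were listed by role, of which 39 passed the filter on low values. Of these, 8 were called higher and 8 lower, where 9.54% and 13.5% of all genes tested were called. Of the 8 lower, Heyl and Dlk1 passed the filter only through the LLC pools. The median log2 ratio over the 39 was 0.09. Those called higher comprised 4 of 9 genes of the nuclear complex and its corepressors, 3 of 11 ubiquitin ligases and endocytic regulators and 1 of 10 genes of receptor cleavage. Those called lower were spread over all 6 roles listed. Hes5, a Hes target prominent in the nervous system, was at 0 in all 4 pools, and Dll3 was at or under the detection limit in every pool. Hey2 did not exceed 0.15 RPM, and Nrarp, a target that feeds back on the receptor complex, stood at 0.65 and 0.85 RPM in LLC tumors against 0.30 and 0.05 RPM in LLC-Chem tumors. Both were under the limit for testing, and 79.4% of the exonic bases of Nrarp are shared with another gene.

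Heyl, the Hey family member of mural cells, stood at 3.45 and 2.70 RPM in LLC tumors against 1.05 and 0.30 RPM in LLC-Chem tumors (log2 ratio -1.67, limma adjusted p = 0.0334). Dlk1, a ligand-like protein that lacks the receptor-activating domain, had the largest fall of the 39, from 1.70 and 4.85 RPM to 0.30 and 0.10 RPM (log2 ratio -2.31, limma adjusted p = 0.0275). The groups did not overlap for either gene, but the LLC-Chem mean of both was under 1 RPM, so that they passed the filter only through the LLC pools. The log2 ratio of Dlk1 was -1.67 with LLC pool 2 left out, and it was -4.02 by edgeR. Lfng and Mfng, glycosyltransferases that tune which ligands a receptor answers to, also fell. Lfng went from 30.8 and 36.6 RPM to 17.2 and 9.64 RPM (log2 ratio -1.35, limma adjusted p = 0.0293), and Mfng fell by 1.44 log2 units (limma adjusted p = 0.0337). The other 3 glycosylation genes, Rfng, Pofut1 and Poglut1, had log2 ratios of 0.25, 0.15 and 0.09 and were not called.

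Tle1, a Groucho corepressor, had the largest rise of the 39, from 36.5 and 32.9 RPM to 118 and 146 RPM (log2 ratio 1.91, SE 0.14, limma adjusted p = 0.00665). Tle3, of the same family, fell, with 88.2 and 92.3 RPM in LLC against 65.1 and 58.1 RPM in LLC-Chem tumors (log2 ratio -0.55, limma adjusted p = 0.0258). Dtx4 and Dtx3, of the Deltex family of ubiquitin ligases, rose by 1.20 and 1.05 log2 units (limma adjusted p = 0.00727 and 0.0127), while Dtx2 fell by 0.73 (limma adjusted p = 0.0219). The Mastermind-like coactivators Maml2 and Maml3 each rose by 0.68 (limma adjusted p = 0.0296 and 0.0269), and Maml1 had a log2 ratio of 0.28 that was not called (limma adjusted p = 0.0919). Mib2, a ubiquitin ligase that acts on the ligands, rose by 0.61 (limma adjusted p = 0.0229).

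The receptor-cleaving protease Adam17 rose from 169 and 184 RPM to 286 and 298 RPM (log2 ratio 0.73, limma adjusted p = 0.0144). Adam10, the main protease for ligand-bound Notch, stood at 142 and 147 RPM in LLC tumors against 184 and 175 RPM in LLC-Chem tumors, a log2 ratio of 0.31 that was not called with the RPM as deposited (limma adjusted p = 0.0651) and was called after TMM scaling (limma adjusted p = 0.0472). Aph1c, a gamma-secretase subunit, fell by 1.03 log2 units (limma adjusted p = 0.0264). Rbpj, the DNA-binding partner of every Notch receptor, was abundant, at 334 and 305 RPM in LLC tumors against 367 and 395 RPM in LLC-Chem tumors, and was not called (log2 ratio 0.25, limma adjusted p = 0.145).

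**Figure D5:**
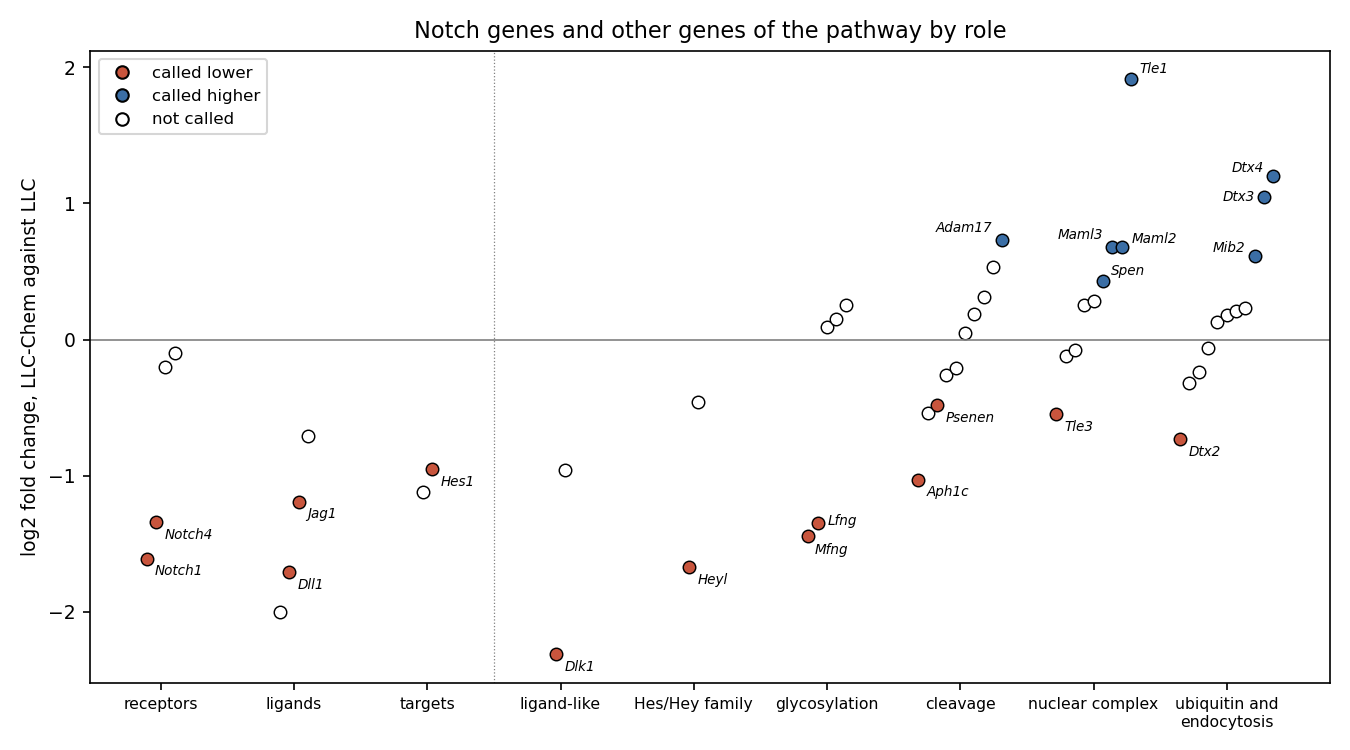
Log2 ratio in LLC-Chem against LLC tumors for the 10 Notch genes (left of the dotted line) and the 39 other pathway genes that passed the filter, grouped by role; colors mark the genes called by limma. The called receptors, ligands, targets and glycosyltransferases lie below 0, and Tle1 at 1.91 and Dlk1 at -2.31 are the extremes among the other genes.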

How the data were processed

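The 4 libraries are pools of 3 tumors each. The authors aligned the read pairs with STAR to GRCm38.p4, counted them on genes of an Ensembl annotation with HTSeq, and deposited RPM, reads scaled to 1000000 per pool, for 47729 genes. Tool versions and the use of strand in counting are not given in the sources used here. All deposited RPM above 0 (100%) were whole multiples of 1 step within 0.01 step, and the steps gave nearly equal totals near 20000000 per pool, so the reads had been scaled before deposit. Library totals were fitted from steps 3 to 600 and reads recovered from them (largest error 0.031% in 4 simulated libraries).

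Groups and replicate numbers came from the sample labels. limma 3.58.1 in R 4.3.3 (lmFit, eBayes with trend) was run on log2(RPM + 0.5) where the mean reached 1 RPM, and the fit was tested on simulated data. Alternatives were pseudocounts of 0.1 and 1, TMM and median-of-ratios scaling, minimum means of 0.2 and 5 RPM and no minimum, eBayes without trend, the replicate number as a block, edgeR 4.0.16 (quasi-likelihood) and DESeq2 1.42.0 on the recovered reads, and leaving out each pool. A block with the numbers crossed was added after the data were seen. Exon lengths, coordinates and overlaps are from GENCODE M21 (GRCm38), upstream sequences from RefSeq on GRCm38.p6. Plots used Python 3.11.15 and matplotlib 3.10.9.

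The members and lists were chosen with earlier results of these data known. Named genes were the 10 members, 8 pathway genes fixed by name (1 of which is not reported here), up to 12 further pathway genes called with separated pools by the largest change, and fixed markers with the extremes of their lists. Genes outside this rule (Hes5, Rfng, Pofut1, Poglut1, Maml1, Spen, Psenen, Egfl7, Gja4, Gja5, Efnb2, Sox17, Unc5b, Hbb-bs, Ncr1, Nkx2-1, Sftpc, Epcam, Csf1r, Lyz2, Cspg4, Pdgfra, Col1a1 and Col1a2) were named after their values were seen. P-values measure the spread between pools of tumors.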

Additional observations from a re-analysis of the deposited data

How the results depend on the processing

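The fall of Notch1, Notch4, Dll1 and Jag1 kept its direction and its call under 11 of the 12 alternatives that keep all 4 pools, the crossed block included, except that Dll1 was under a minimum mean of 5 RPM. Without a minimum mean, limma called 0 of the 10 Notch genes lower, 0 higher and 0 lower of the other pathway genes, and 1 gene higher and 0 lower in the whole table, against 3394 and 4003 at an unadjusted p under 0.05. Leaving out any 1 pool gave 0 calls throughout by limma (lowest 0, highest 0), where the lone pool of a group is assumed to vary like the other group, and with 998 to 2359 genes higher and 1580 to 2823 lower at an unadjusted p under 0.05. Without a pool, Notch3 had a log2 ratio from -0.31 to 0.11, and was above 0 with LLC pool 1 left out (0.11) or LLC-Chem pool 2 left out (0.02). A minimum mean of 5 RPM left 5 of the other pathway genes lower. The deviations of same-numbered pools correlated at -0.1405, which gave no sign that the numbers pair the pools. With 2 pools per group this cannot exclude pairing. With the replicate number as a block, 5 Notch genes were called, with Dll4 gained (adjusted p = 0.0295) and Hes1 lost (adjusted p = 0.0615), 4 other pathway genes were higher, and the calls of Mib2 (adjusted p = 0.051), Maml2 (0.0569), Maml3 (0.0609), Spen (0.0871), Tle3 (0.0597), Aph1c (0.0568) and Psenen (0.0832) were lost while Egfl7 was gained (0.0404). Cmklr1 (0.0569), Gja5 (0.0711), Csf1r (0.0853), Pdgfra (0.0658), Col1a1 (0.0857) and Col1a2 (0.0871) were lost as well. Esm1 and Sox17 were gained (limma adjusted p = 0.0243 and 0.0422). In the block fit 549 genes were higher and 1064 lower in the whole table, from 1306 and 1848. Without the trend in eBayes, Tle3, Spen and Psenen were not called (Tle3 adjusted p = 0.0522). Cspg4, 1 of the 6 mural markers called, was lost by edgeR (0.051). With the numbers crossed, the same 5 Notch genes as without a block were called. The precision of Dll1, Hey1 and the second LLC-Chem pool of Dll4 is limited by 15 to 28 reads.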

Other observations

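Of the 7 genes of arterial and tip endothelial cells, 5 had both LLC-Chem pools under both LLC pools and 2 overlapped between the groups. Of all genes tested, 39.3% had both LLC-Chem pools under both LLC pools. Gja4, an arterial connexin, fell, with 4.25 and 2.95 RPM in LLC tumors against 0.90 and 0.60 RPM in LLC-Chem tumors (log2 ratio -1.71, limma adjusted p = 0.0183), and Gja5 fell by 1.05 log2 units (limma adjusted p = 0.0345). Both, like Esm1 and Sox17, averaged under 1 RPM in LLC-Chem tumors and passed the filter on low values only through the LLC pools. Neither their calls nor the count of 5 thus says anything about the list. Esm1, a tip cell gene, measured 6.5 and 2.5 RPM in LLC and 1.30 and 0.30 RPM in LLC-Chem tumors and missed the threshold (log2 ratio -1.93, limma adjusted p = 0.0557). Sox17 and Unc5b, also without overlap, had log2 ratios of -1.38 and -0.27 (limma adjusted p = 0.0588 and 0.162). Esm1 and Sox17 passed by DESeq2 (adjusted p = 0.00867 and 0.0391) and did not pass by edgeR (adjusted p = 0.0705 and 0.0708). Efnb2, an arterial ephrin, measured 28.4 and 33.3 RPM in LLC and 30.8 and 31.3 RPM in LLC-Chem tumors (log2 ratio 0.01, limma adjusted p = 0.946), and Apln, the apelin gene of tip cells, overlapped between the groups (log2 ratio 0.06, limma adjusted p = 0.826). These genes were named after their values were seen, apart from the lowest and highest of the list.

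Of the T and NK cell markers, Nkg7, a cytotoxic granule gene, was at 7.95 and 5.85 RPM in LLC tumors against 0.75 and 0.25 RPM in LLC-Chem tumors (log2 ratio -2.92, limma adjusted p = 0.0117). Nkg7 and Ncr1, the markers of this list that could be tested, passed the filter only through the LLC pools, so their calls say nothing about the list. Of 5 fibroblast markers 1 was called higher and 2 lower, where limma called 9.54% and 13.5% of all genes tested. The call of the higher one, Pdgfra, was lost by edgeR (adjusted p = 0.0555). The lung epithelial genes Nkx2-1, Sftpc and Epcam were at or near 0 RPM in every pool, while Krt8 was at 167 and 152 RPM in LLC and 122 and 82.8 RPM in LLC-Chem tumors (log2 ratio -0.67, limma adjusted p = 0.0578) and Krt18 measured 137 and 110 RPM in LLC and 139 and 112 RPM in LLC-Chem tumors. Cfd was the 1 adipocyte marker called higher and Tnnt3 the 1 skeletal muscle marker called higher, at log2 ratios of 2.16 and 1.21 (limma adjusted p = 0.0466 and 0.0419). Fabp4, also an adipocyte marker, had a log2 ratio of -0.67 and was not called (limma adjusted p = 0.231). Tnnt3 was the only 1 of 5 skeletal muscle markers tested, and the 4 others were at 0 or had a lower mean in LLC-Chem tumors. The call of Cfd was lost with a pseudocount of 1 (limma adjusted p = 0.0513) and with the replicate block (0.0511), and its log2 ratio ran from 1.28 without the first LLC-Chem pool to 3.04 without the second. None of the 3 erythroid markers and not the 1 keratinocyte marker tested was called, and Hbb-bs was at 74.3 and 2.35 RPM in the LLC-Chem pools.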
